A study of Mus musculus with 6 samples.

Results

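The mitochondrial ribosome large subunit genes described here are the genes whose symbol in the array's platform annotation begins with Mrpl and whose probe sets carried values, namely Mrpl20, Mrpl27, Mrpl28, Mrpl43 and Mrpl52. They are 5 of the 494 genes measured, with 6 of the 643 probe sets, since Mrpl52 had 2. The annotation names 47 Mrpl genes on this array, and the others were not analysed here. Expression was measured in whole hearts of 3 Pgc1b knockout mice and 3 wild-type mice, 1 array per heart, all on a mixed sv129 and C57BL/6 background and labelled as biological replicates. Pgc1b, now named Ppargc1b, encodes a coactivator of nuclear receptors. Age, sex, the deleted part of the gene and any restriction of the deletion to a cell type are not stated in the labels, and Ppargc1b itself was not analysed here, so the genotype labels have no check by the targeted transcript. The deposited values are probe set signals on the log2 scale, normalized between arrays, so a difference of 1 is a doubling of signal.

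The mitochondrial ribosome sits in the matrix, at the inner membrane, and translates the mRNAs of mitochondrial DNA, all of which encode subunits of the respiratory chain and ATP synthase. Its proteins are encoded in the nucleus, made in the cytosol and imported, so nuclear and mitochondrial genes must both be expressed for the respiratory complexes to be built. The heart is rich in mitochondria. The coactivators of the PGC-1 family are known to act on nuclear genes of mitochondria through factors such as the oestrogen-related receptors, NRF1 and GABPA. Mrpl20, Mrpl27 and Mrpl28 encode counterparts of bacterial large-subunit proteins, whereas the Mrpl43 and Mrpl52 proteins belong to the part of the mitochondrial ribosome that bacteria lack.

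Array medians ran from 7.45 to 7.61. On the leading principal component, which held 33% of the variance, knockout replicates 2 and 3 stood at 3.22 and 2.86, apart from knockout replicate 1 at -2.57, while the wild-type arrays lay between -2.23 and 0.09. The hybridisation spikes, RNAs added in fixed amounts before hybridisation, averaged 9.52 ± 0.18 on knockout and 9.89 ± 0.23 on wild-type arrays (SD, n = 3 each, exact permutation p = 0.1, the smallest that 3 against 3 allows). The highest knockout array, at 9.68, lay just below the lowest wild-type array, at 9.69. Fits below with this mean as a covariate therefore cannot fully tell it apart from genotype. The excess of 3′ over 5′ signal of Actb, which reflects how intact the RNA was, came to 0.63 ± 0.11 in knockout and 0.75 ± 0.02 in wild-type hearts (exact permutation p = 0.1). The same measure for Gapdh did not separate the genotypes, at 0.08 ± 0.11 in knockout and 0.08 ± 0.09 in wild-type hearts (exact permutation p = 1.0). Of the heart muscle markers looked for, 1 of 18 was measured: Actc1, the cardiac actin, had 14.11 to 14.13 in knockout and 14.09 to 14.15 in wild-type hearts. Of the markers of other cell types, only Tie1 (endothelium), Mpo (neutrophils) and Bpgm and Car1 (red cells) were measured, with differences of -0.08, 0.10, 0.31 to 0.46 and 0.13 between knockout and wild-type hearts, none called, and their part in the results was not tested. In whole hearts, fewer cells of a type and less RNA per cell cannot be told apart.

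The promoters of 3 of the 5 genes are shown because they share the core letters of the site for GABPA (NRF-2), a factor known to bind nuclear genes of mitochondria. Each is the strand of the gene, 5′ to 3′, 250 bases up to the annotated start, from RefSeq on GRCm38.p6. Capitals mark CCGGAAG, or CTTCCGG where the match is on the other strand.

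Mrpl43, chr19:45006443-45006692, minus strand: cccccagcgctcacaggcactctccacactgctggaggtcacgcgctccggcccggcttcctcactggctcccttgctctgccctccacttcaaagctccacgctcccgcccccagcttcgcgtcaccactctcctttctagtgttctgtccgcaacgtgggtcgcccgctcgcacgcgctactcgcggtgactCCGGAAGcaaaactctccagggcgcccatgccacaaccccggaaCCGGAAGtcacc

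Mrpl27, chr11:94653541-94653790, plus strand: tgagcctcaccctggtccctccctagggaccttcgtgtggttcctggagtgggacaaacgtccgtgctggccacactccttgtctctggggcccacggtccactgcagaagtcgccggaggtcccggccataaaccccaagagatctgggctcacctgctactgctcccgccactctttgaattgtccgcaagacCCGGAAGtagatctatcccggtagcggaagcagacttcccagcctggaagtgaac

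Mrpl52, chr14:54426659-54426908, plus strand: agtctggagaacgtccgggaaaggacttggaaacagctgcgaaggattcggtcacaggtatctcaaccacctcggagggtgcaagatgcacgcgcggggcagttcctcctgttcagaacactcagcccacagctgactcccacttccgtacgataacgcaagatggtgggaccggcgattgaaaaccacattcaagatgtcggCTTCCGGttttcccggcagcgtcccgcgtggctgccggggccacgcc

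In Mrpl43 the letters begin at positions -56 and -12 relative to the start, in Mrpl27 at -55, and in Mrpl52 at -47 and again at 2, beyond the stretch shown. Letters were searched from 250 bases before to 50 after each start, a longer stretch than the one shown. Over that stretch CCGGAAG on either strand was found in 8.86% of all 32851 promoters in the table, and in 20.3% of the 503 promoters of the genes measured here. In the promoters of Mrpl20 and Mrpl28 these letters were not found. None of the 5 promoters held AAGGTCA (the core of the site of the oestrogen-related receptors, in 4.72% of all promoters), its extension TNAAGGTCA, which contains it (1.28%), GCGCANGC (the core of the NRF1 site, 9.95%) or AAGATGGC (the core of the YY1 site, 2.75%). These matches describe letters and not bound sites.

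Mrpl43 had the largest difference of the 6 probe sets, with lower signal in the knockout hearts. Its log2 signal was 8.53, 8.61 and 8.56 in the knockout hearts, against 8.80, 8.88 and 8.91 in the wild-type hearts. Every knockout heart lay below every wild-type heart, with a gap of 0.19 between the groups that was wider than the range within either, 0.08 in knockout and 0.11 in wild-type hearts. The means were 8.57 ± 0.04 in knockout and 8.86 ± 0.06 in wild-type hearts (SD, n = 3 each), a difference of -0.29 (95% interval -0.46 to -0.13), or 81.5% of the wild-type signal (interval 72.9% to 91.2%). Its unadjusted p of 0.0033 ranked 4 among the 643 probe sets in limma, but it did not pass adjustment over all of them (adjusted p = 0.298, and 0.188 to 0.666 in the alternatives). With the mean of the hybridisation spikes as a covariate it was -0.34 (95% interval -0.59 to -0.08), and leaving out each heart in turn gave -0.33 to -0.27. In the gene table Mrpl43 overlaps the 5′ end of its neighbour Twnk, the mitochondrial DNA helicase, which was not analysed here.

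Mrpl28 was also lower in the knockout hearts, by a smaller margin. Its signal was 9.14, 9.22 and 9.23 in the knockout hearts, against 9.44, 9.43 and 9.27 in the wild-type hearts. The groups did not overlap, but wild-type replicate 3 came within 0.04 of the highest knockout heart, while the other wild-type hearts lay clearly above all knockout hearts. The difference was -0.19 (95% interval -0.37 to -0.0036, limma adjusted p = 0.461, and 0.245 to 0.772 in the alternatives), which puts the knockout signal at 87.9% of wild type. With the mean of the hybridisation spikes as a covariate it was -0.12 (95% interval -0.40 to 0.17), while leaving out each heart in turn gave -0.24 to -0.16.

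Mrpl27, whose bacterial counterpart reaches towards the site of peptide bond formation, differed least of the 3 genes with lower means. Its signal was 9.94, 10.03 and 10.02 in the knockout hearts, against 10.04, 10.10 and 10.13 in the wild-type hearts. The groups met without overlapping, 0.01 apart, and each spread over 0.09. The difference was -0.09 (95% interval -0.25 to 0.07, limma adjusted p = 0.659), and after a further quantile normalization the groups overlapped at a difference of -0.06. With the mean of the hybridisation spikes as a covariate it was -0.14 (95% interval -0.40 to 0.11).

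Mrpl20, whose counterpart in Escherichia coli is needed early in assembly of the large subunit, had nearly the same mean in both genotypes and a wide spread among the knockout hearts. Its signal was 9.10, 9.46 and 9.41 in the knockout hearts, against 9.34, 9.33 and 9.27 in the wild-type hearts. Knockout replicate 1 was the lowest of all 6 hearts and the other knockout hearts were the highest, so the wild-type values lay between them. The means were 9.32 ± 0.19 in knockout and 9.31 ± 0.04 in wild-type hearts (SD, n = 3 each), a difference of 0.01 (95% interval -0.23 to 0.26, limma adjusted p = 0.979). The sign depended on the arrays: it was 0.12 without knockout replicate 1, -0.06 without knockout replicate 2 and -0.03 without knockout replicate 3. It was also negative with arrays centred on their medians (-0.03) and after a further quantile normalization (-0.07). The name of the probe set marks one that reads more than 1 transcript of the gene, and transcripts were not told apart.

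Mrpl52 differed the other way, with higher mean signal in the knockout hearts. In its brighter probe set the signal was 8.31, 8.09 and 7.995 in the knockout hearts, against 8.001, 7.82 and 7.81 in the wild-type hearts. The groups only just overlapped, where knockout replicate 3 met wild-type replicate 1. The means were 8.13 ± 0.16 in knockout and 7.88 ± 0.11 in wild-type hearts (SD, n = 3 each), a difference of 0.26 (95% interval 0.01 to 0.50, limma adjusted p = 0.46, and 0.368 to 0.71 in the alternatives). The difference was 0.41 with the mean of the hybridisation spikes as a covariate (95% interval 0.07 to 0.76). Without knockout replicate 1 it was 0.17, and its interval spanned both signs (-0.06 to 0.39). The interval also did so with arrays centred on their medians (0.21, interval -0.09 to 0.51) and after a further quantile normalization (0.24, interval -0.05 to 0.53). The same held without knockout replicate 2, wild-type replicate 2 or wild-type replicate 3. In the other fits to all hearts, and without knockout replicate 3 or wild-type replicate 1, the interval stayed positive.

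The dimmer probe set of Mrpl52 gave a similar mean difference by another order of hearts. Its signal was 8.21, 8.15 and 7.82 in the knockout hearts, against 7.79, 7.81 and 7.96 in the wild-type hearts. Knockout replicates 1 and 2 lay above all other hearts, while knockout replicate 3 fell within the wild-type range. The difference was 0.21 (95% interval -0.06 to 0.48, limma adjusted p = 0.546), with 0.33 without knockout replicate 3 and 0.13 without knockout replicate 1. Both probe sets read the same gene and count as 1 measurement of it, and the name of the dimmer one marks probes that may also bind other sequences. The difference between the 2 probe sets did not itself differ between genotypes beyond its spread (0.05, 95% interval -0.30 to 0.39, exact permutation p = 0.8).

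**Figure D1:**
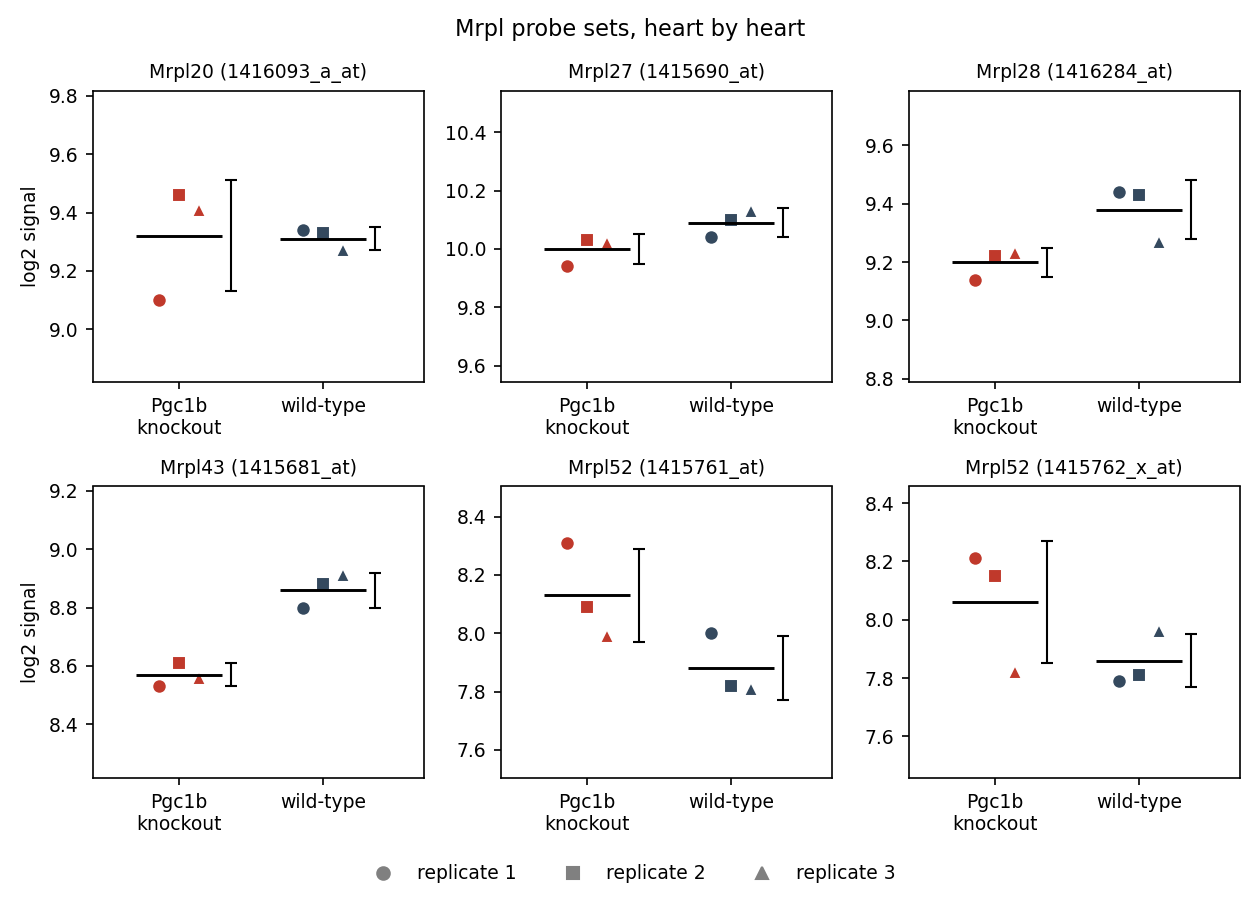
The log2 signal (vertical axis, each panel spanning 1 unit) of the 6 Mrpl probe sets in the 3 Pgc1b knockout hearts (left, red) and 3 wild-type hearts (right, blue), with a symbol for each replicate number, lines for group means and bars for ± SD. The Mrpl43 groups lie 0.19 apart, whereas in Mrpl20 knockout replicate 1 at 9.10 stands below and the other knockout hearts above all wild-type hearts.

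**Figure D2:**
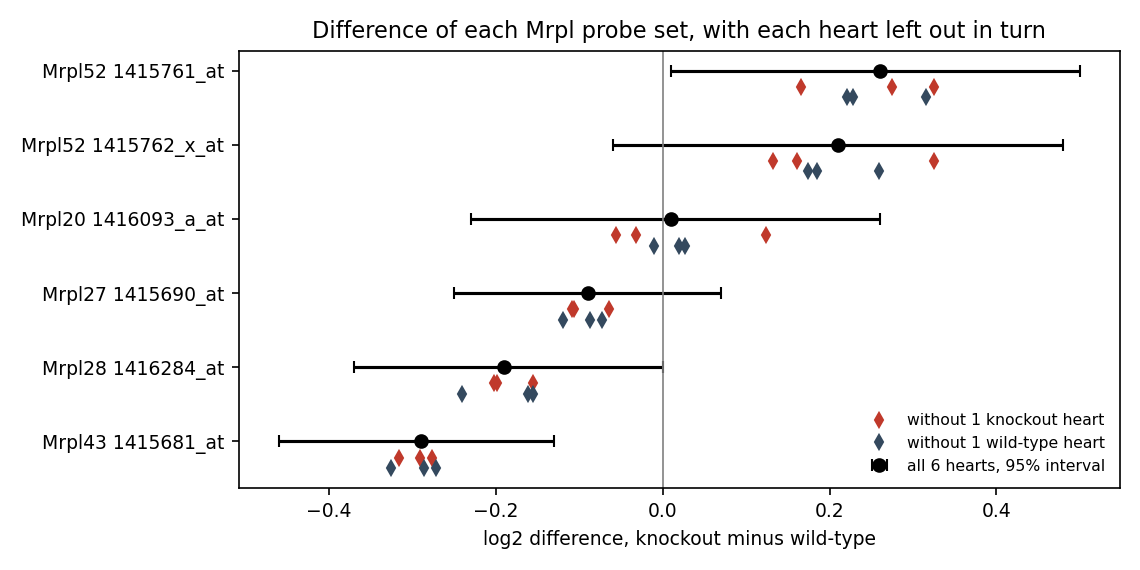
The log2 difference between knockout and wild-type hearts (horizontal axis) of each Mrpl probe set over all 6 hearts with its 95% interval in limma (black), and the same without 1 knockout heart (red) or 1 wild-type heart (blue). Only Mrpl20 changes sign when a heart is left out, while Mrpl43 stays between -0.33 and -0.27.

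By count, limma called 0 of the 6 Mrpl probe sets at an adjusted p under 0.05, against 0 of all 643 tested, or 0%. Of the 643, 66 had an unadjusted p under 0.05, and a prior variance that follows expression called 2, neither an Mrpl probe set. At that unadjusted threshold 2 Mrpl probe sets were lower (Mrpl43 and Mrpl28) and 1 was higher (the brighter probe set of Mrpl52), where 4.98% of all tested probe sets were lower and 5.29% higher. The count of 3 became 1, with only Mrpl43 left, without knockout replicate 1, without knockout replicate 2 and without wild-type replicate 2. Without knockout replicate 3 it stayed at 3, but with both Mrpl52 probe sets and without Mrpl28. When each heart was left out, Mrpl28 kept an unadjusted limma p under 0.05 only without wild-type replicate 3 (0.0203). Its limma p was 0.0834 with the replicate block and 0.355 with the spike covariate, and under 0.05 in the other fits to all hearts. In 3 of the 6, Mrpl27, Mrpl28 and Mrpl43, all knockout values lay below all wild-type values, as in 9.02% of all tested probe sets. In 0 of the 6 all knockout values lay above all wild-type values, as in 9.64% of all. With arrays centred on their medians, the probe sets at an unadjusted p under 0.05 were split into 47 lower and 19 higher, against 32 lower and 34 higher as deposited. The median difference of the 6 Mrpl probe sets was -0.04, beside 0.01 over all tested. With 1 probe set per gene, the brighter one of Mrpl52, 3 of the 5 genes had lower and 2 higher means, with a median of -0.09.

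**Figure D3:**
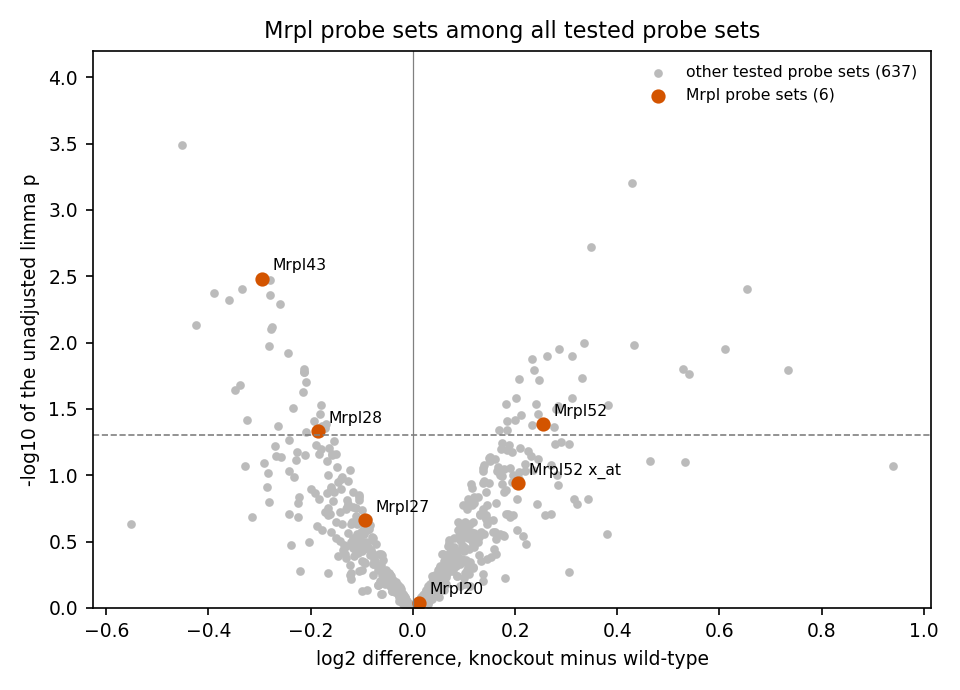
The log2 difference between knockout and wild-type hearts (horizontal axis) against -log10 of the unadjusted limma p (vertical axis) for the 6 Mrpl probe sets (orange, labelled) and the 637 others (grey), with a dashed line at an unadjusted p of 0.05. The Mrpl genes spread from Mrpl43 at -0.29 to Mrpl52 at 0.26, and Mrpl20 lies at the centre.

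Averaged over the 6 probe sets, each centred on its own mean, the genotypes overlapped. The mean was -0.02, 0.04 and -0.05 in the knockout hearts, against 0.01, 0.01 and 0.00 in the wild-type hearts, a difference of -0.02. This mean counts Mrpl52 by both of its probe sets. With 1 probe set per gene, chosen after seeing the data, it was -0.07, 0.01 and -0.03 in the knockout hearts, against 0.05, 0.04 and 0.00 in the wild-type hearts, again with overlap and a difference of -0.06. Over the 6 probe sets the difference was also larger with arrays centred on their medians (-0.0603) and after a further quantile normalization (-0.05), and it was 0.00323 without knockout replicate 3. The genes with lower means and Mrpl52 offset each other in this mean, so it does not show the observed differences of single genes, none of them called. Knockout replicate 1 carried the most extreme values: it was the lowest of the 6 hearts for Mrpl20, Mrpl27, Mrpl28 and Mrpl43 and the highest for both Mrpl52 probe sets. Over all 643 probe sets it was the lowest heart in 23.5% and the highest in 12.9%, and its array median was the lowest of the 6. With arrays centred on their medians this turned round over all probe sets, where it was the lowest heart in 11.7% and the highest in 26.4%, and it was the lowest in 1 of the 6 Mrpl probe sets and the highest in 2. Compared alone with the 3 wild-type hearts, because the other knockout arrays stood apart, it gave differences of -0.33 for Mrpl43, -0.25 for Mrpl28, -0.15 for Mrpl27, -0.21 for Mrpl20, and 0.43 and 0.35 for Mrpl52. This comparison has 1 knockout heart, assumed to vary like the others.

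Whether the genes differed from each other in their response was asked heart by heart, by the log2 signal of one gene minus that of another in the same heart, which removes any shift shared by an array. The size of such a value depends on the probes, and only its difference between genotypes is read. All 10 pairs of the 5 genes were compared, with the brighter probe set of Mrpl52. Its dimmer probe set was not paired, so the results and counts of pairs with Mrpl52 hold for the brighter one only. In the dimmer one, knockout replicate 3 (7.82) lay below wild-type replicate 3 (7.96). Mrpl52 minus Mrpl43 was -0.22, -0.51 and -0.56 in the knockout hearts, against -0.80, -1.05 and -1.10 in the wild-type hearts, and the groups did not overlap. The 2 genes thus differed in their knockout minus wild-type difference by 0.55 (95% interval 0.15 to 0.95). Mrpl52 differed in the same way from Mrpl28, by 0.44 (interval 0.07 to 0.81).

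Mrpl43 was lower in the knockout hearts relative to Mrpl27 as well. Mrpl43 minus Mrpl27 was -1.41, -1.42 and -1.47 in the knockout hearts, against -1.24, -1.22 and -1.23 in the wild-type hearts, and the groups did not overlap. The difference was -0.20 (95% interval -0.25 to -0.15), and leaving out each heart gave -0.21 to -0.19. Against Mrpl20 the difference of Mrpl43 was -0.31 (interval -0.61 to -0.01). In 4 of the 10 pairs the interval did not hold 0, and in 5 the genotypes did not overlap, the fifth being Mrpl52 and Mrpl27 (0.35, interval -0.07 to 0.76). Over all 121771 pairs of the 494 measured genes, taken in the same way, the interval did not hold 0 in 9.76% and the genotypes did not overlap in 17.6%. The 10 pairs share their 5 genes, and each of the 5 without overlap holds Mrpl43 or Mrpl52, so they are not separate observations. These 5 pairs had an exact permutation p of 0.1, the smallest possible, and 0.2 after Benjamini-Hochberg adjustment over the 10 pairs, so no pair could pass. Mrpl43 and Mrpl28 were not distinguished (-0.11, interval -0.34 to 0.13, exact permutation p = 0.3), and neither were Mrpl28 and Mrpl27 (-0.09, interval -0.31 to 0.13, exact permutation p = 0.4).

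**Figure D4:**
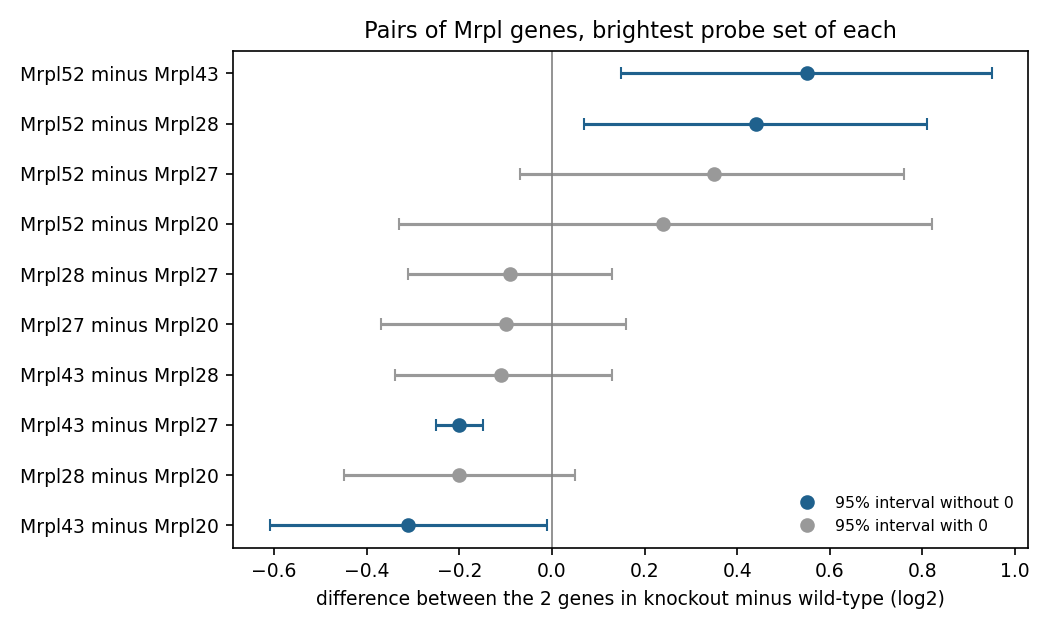
For each of the 10 pairs of Mrpl genes, the difference between the genes in their knockout minus wild-type log2 difference (horizontal axis) with its 95% interval from a linear model of the 6 hearts, blue where the interval does not hold 0. The pairs run from 0.55 for Mrpl52 minus Mrpl43 to -0.31 for Mrpl43 minus Mrpl20, and the interval of Mrpl43 minus Mrpl27 (-0.25 to -0.15) is the narrowest. Mrpl52 is given by its brighter probe set only.

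Other genes of mitochondrial translation were few in the table. Mtif2, an initiation factor of mitochondrial translation, had 7.39, 7.79 and 7.77 in the knockout hearts, against 8.07, 7.90 and 7.66 in the wild-type hearts. These groups overlapped, with knockout replicate 1 the lowest of the 6 (difference -0.22, 95% interval -0.56 to 0.11, limma adjusted p = 0.612). The difference was -0.0948 without knockout replicate 1, -0.126 without wild-type replicate 1 and -0.0403 with the mean of the hybridisation spikes as a covariate (95% interval -0.55 to 0.47). Kars, the lysyl-tRNA synthetase of both cytosol and mitochondria, differed by 0.03 (interval -0.14 to 0.21), and Dhx30, an RNA helicase of mitochondrial ribosome assembly, by -0.02 (interval -0.18 to 0.15). Of these lists of 21 translation factors, 24 tRNA synthetases and 31 assembly factors, 1 gene each was measured and 0 were called. Genes of the small subunit and of mitochondrial DNA transcription and replication were not analysed here.

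The complexes that take up the products of mitochondrial translation had mostly lower means, where 45.7% of all tested probe sets had a lower mean, 4.98% were lower at an unadjusted p under 0.05 and the median was 0.01. Of complexes I and IV, 6 genes with 8 probe sets were measured: 8 of 8 had lower means, 2 had an unadjusted p under 0.05, 0 were called, and the median difference was -0.13. Among them, Cox8a, a subunit of cytochrome c oxidase, differed by -0.32 (95% interval -0.63 to -0.02) and Ndufc1, a subunit of the NADH dehydrogenase, by -0.18 (interval -0.34 to -0.02). The 2 probe sets of Ndufb11 differed by only -0.02 and -0.01. With array weights, with the spike covariate, or without any 1 knockout heart or wild-type replicate 3, 7 of 8 had lower means. The count of 2 was 0 without knockout replicate 2 and 1 without knockout replicate 3 or any 1 of the wild-type hearts. It was also 1 with array weights, the replicate block or the spike covariate, 3 with arrays centred on their medians, and 4 with a prior variance that follows expression. Of 6 ATP synthase genes, 5 had lower means, 2 had an unadjusted p under 0.05 and 0 were called, with a median of -0.12. Here the count of 2 was 1 without wild-type replicate 2 or with the spike covariate, 3 with arrays centred on their medians, and 4 with that prior. Atp5o, a subunit of the stalk, had the largest difference there (-0.28, interval -0.43 to -0.13). It was called by the prior variance that follows expression (limma adjusted p = 0.0274, against 0.298 with the constant prior, and at most 0.666 in any alternative).

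The cytosolic large ribosomal subunit, which makes the imported proteins, had mostly higher means, where 54.3% of all tested probe sets had a higher mean and 5.29% were higher at an unadjusted p under 0.05. Of its 6 measured genes with 7 probe sets, 6 of 7 probe sets had higher means, 3 had an unadjusted p under 0.05, 0 were called, and the median difference was 0.17. Rpl7 differed by 0.20 (95% interval 0.03 to 0.37), Rpl37a by 0.18 (interval 0.02 to 0.34) and Rpl35 by 0.17 (limma adjusted p = 0.461). The count of 3 at an unadjusted p under 0.05 was 0 with arrays centred on their medians, where the p of these genes lay between 0.108 and 0.122. It was also 0 with the replicate number as a block, and without knockout replicate 2, knockout replicate 3 or wild-type replicate 2, while 6 or 7 of the 7 probe sets had higher means in each of these fits. It was 1 without wild-type replicate 1 and with the spikes as a covariate. The median of the Mrpl genes lay between these lists, at -0.04 by probe set and -0.09 by gene, and no test was made between them. These lists were put together with earlier results of these data known.

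The genes with the most similar course over the 6 hearts were found by the root mean square difference between 2 profiles, each centred on its own mean, among all named probe sets outside the family. Mrpl43 lay closest to Atp5o, at 0.0377 on the log2 scale, whose signal was 12.69, 12.65 and 12.68 in the knockout hearts, against 12.91, 12.94 and 13.00 in the wild-type hearts. Ciapin1, a gene of iron-sulphur protein assembly, came next at 0.0564 and the melanocyte gene Tyrp1 at 0.0569, though Tyrp1 lay between 2.87 and 3.19, near the lowest values of the table. Mrpl28 lay closest to the complex I gene Ndufv1, at 0.0274 in its dimmer probe set, followed by Rpsa at 0.0373, in a probe set with signals of 3.45 to 3.74, and by Atp5j, of ATP synthase, at 0.0403.

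The other Mrpl genes had neighbours of mixed function. Mrpl27 ran with the splicing factor gene Snrpc (0.0295), with Nsg2 (0.0323) and with Api5 (0.0341). Mrpl20 ran with Mlst8, of the mTOR complexes (0.0424, in its dimmer probe set). It also ran with Acadm, the dehydrogenase of medium-chain fatty acid oxidation (0.0449), and with Sec13, of vesicle coats (0.0505). In Acadm, too, knockout replicate 1 was the lowest heart, at 12.19. Mrpl52 had the loosest matches, Vac14 (0.0732), Psmc4, an ATPase of the proteasome (0.0827), and Sgpl1 (0.0858). The other probe set of Sgpl1 differed by -0.0946 between knockout and wild-type hearts, against 0.149 in the matched one. Between Mrpl genes the distances were 0.0915 for Mrpl27 and Mrpl28, 0.101 for Mrpl28 and Mrpl43 and 0.102 for Mrpl27 and Mrpl43, and up to 0.31 for Mrpl43 and Mrpl52. The 2 probe sets of Mrpl52 were 0.127 apart. With 6 hearts and a choice of the closest among all profiles, these distances are descriptions.

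**Figure D5:**
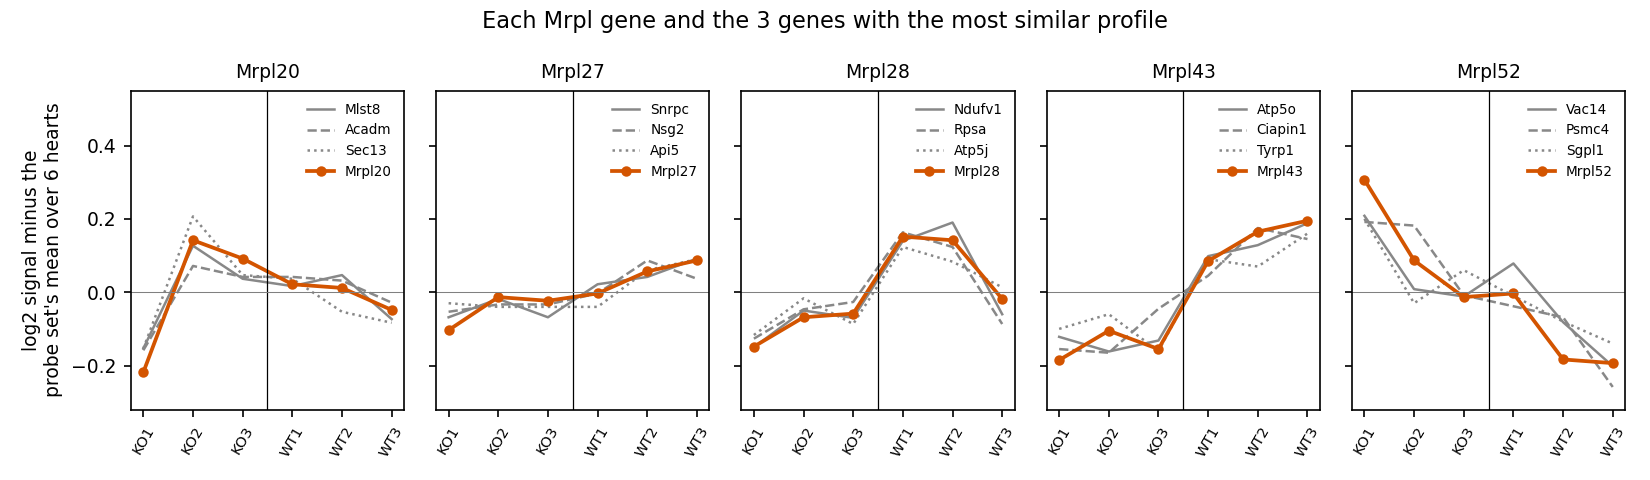
Log2 signal minus the probe set's mean over the 6 hearts (vertical axis) for each Mrpl gene (orange, brighter probe set for Mrpl52) and the 3 genes with the most similar profile (grey), across knockout hearts (KO1 to KO3) and wild-type hearts (WT1 to WT3). Mrpl43 and Atp5o step together between the genotypes, whereas Mrpl20 and its closest genes have their lowest value in knockout replicate 1.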

How the data were processed

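RNA from whole hearts was amplified from 25 ng and hybridised to Affymetrix 3′ arrays, per the labels' protocols. The deposited log2 values come from the authors' own processing, for which the submitters' processing notes name RMA, GCOS and Partek without saying in which version or step. RMA sets arrays to a common distribution, so changes are relative to other genes. No genome build is named in the sources used here. Of 45101 rows, 707 held values, 64 of them control probe sets. The other 643 were tested. All 6 columns were mapped to hearts by name.

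Knockout and wild-type hearts were compared per probe set in limma 3.58.1 (R 4.3.3, lmFit and eBayes, two-sided, no covariate), with Benjamini-Hochberg adjustment over 643 probe sets, a 95% interval and a call at 0.05. The fit was tested on simulated data. Single values per heart were compared by exact two-sided permutation (scipy 1.17.1). Platform symbols were updated by gene ID, which matched for all 597 probe sets with 1 symbol. The number of arrays limits the precision. The members and lists were chosen with earlier results of these data known. Named besides the members were all measured genes of mitochondrial translation, the 3 genes of smallest p in each other list, and the 3 genes of most similar profile.

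Alternatives were another variance prior, array weights, quantile normalization, centring, 1 probe set per gene, a filter on dim probe sets, the replicate number as a block, the mean hybridisation spike signal as a covariate, and each heart left out. A comparison with only knockout replicate 1, and a mean over the Mrpl genes with 1 probe set each, were added after seeing the data. The replicate numbers are not stated to pair hearts, and deviations of same-numbered hearts correlated at -0.239, -0.101 and 0.193.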

Additional observations from a re-analysis of the deposited data

How the results depend on the processing

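Of the 6 Mrpl probe sets, 5 kept their direction in every alternative run, Mrpl20 being the exception, and none was called in any. For Mrpl20 the difference was -0.0732 after a further quantile normalization, -0.0316 with arrays centred on their medians, -0.0558 to 0.124 when each heart was left out and -0.211 with knockout replicate 1 alone. The mean over the Mrpl probe sets differed by -0.05 after quantile normalization, by -0.0603 after centring and by -0.0612 with 1 probe set per gene, and by -0.0408 to 0.00323 when each heart was left out. The number of called probe sets was 2 with a variance prior that follows expression. Leaving out each heart gave 42 to 88 probe sets at an unadjusted p under 0.05, with 42 without knockout replicate 2, and 1 to 3 Mrpl probe sets. The replicate block changed no call: 51 probe sets had an unadjusted p under 0.05, against 66, and Mrpl43 had an adjusted p of 0.459. The numbers are not stated to pair the hearts.

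Of 24 other named probe sets, 19 kept their direction throughout. Dhx30 had 0.00494 with array weights and 0.0392 with the spike covariate, Mlst8 -0.0368 and Kars -0.00941 with centring, and Acadm 0.000154 with the covariate. With knockout replicate 1 alone, Mlst8 had -0.147, Kars -0.0407 and Sec13 -0.12. Leaving out each heart gave -0.041 to 0.0156 for Dhx30, -0.0743 to 0.0415 for Acadm, -0.0557 to 0.0837 for Mlst8, -0.0187 to 0.162 for Sec13 and -0.00257 to 0.0716 for Kars. After quantile normalization Mrpl27 minus Mrpl20 was 0.0142. The cause was not tested. No detection calls were used, so dim probe sets such as those of Tyrp1 and Rpsa have no check against background.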

Other observations

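The RefSeq table held 48 promoters of 43 Mrpl genes, so the promoters of the family can be described beyond the genes measured in these hearts. GCGCANGC, the core of the NRF1 site, occurred in 33.3% of them, against 21.9% of the promoters of the genes measured here and 9.95% of all promoters. CCGGAAG, the GABPA core that Mrpl27, Mrpl43 and Mrpl52 hold, occurred in 31.2% of the Mrpl promoters, against 20.3% and 8.86%, and AAGATGGC, the YY1 core, in 12.5%, against 5.57% of the promoters of measured genes and 2.75% of all. AAGGTCA, the core of the site of the oestrogen-related receptors, was found in 4.17% of them, against 3.58% and 4.72%. GC content was 66% upstream of Mrpl43 and 41.6% upstream of Mrpl20, with a median of 52.4% over all promoters. No test was made on these shares, and several promoters of a gene can overlap.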
